A study of Homo sapiens with 6 samples.

Results

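The genes described here were 10 members of the common gamma-chain cytokine receptor family in SU-DHL-2 cells, an established diffuse large B-cell lymphoma (DLBCL) line. They were the receptor chains IL2RA, IL2RB, IL2RG, IL4R, IL7R, IL9R, IL15RA and IL21R and the ligands IL2 and IL15. Non-control probes whose RefSeq accession belonged to one of these genes were taken, which gave 14 of the 34127 probes on the array and 10 of the 19740 genes that could be named. IL2RB heads the group because it was higher with IL-17A on these very arrays, so its contrast is described without a test, whereas the other 9 members were chosen by family. Total RNA came from 3 samples cultured with IL-17A at 200 pg/ml for 72 h and from 3 control samples cultured for 72 h without IL-17A, and each was measured on 1 Cy3 array. The labels give no other treatment and no genetic change for either group, and they call the treatment in vivo, although the growth conditions they give and the study's methods are those of cultured cells. All samples came from a single cell line, and the labels do not say whether the replicates were separate cultures, so p-values measure the spread between these samples, which may be technical.

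The common gamma chain, encoded by IL2RG, is a shared signaling subunit of the receptors for IL-2, IL-4, IL-7, IL-9, IL-15 and IL-21, and it is bound by the kinase JAK3. Each cytokine adds its own chains to it, which carry JAK1 and recruit STAT5, STAT6 or STAT3, and IL-2 and IL-15 share the beta chain IL2RB. In lymphocytes, IL2RA (CD25) turns the intermediate-affinity IL-2 receptor made of IL2RB and IL2RG into the high-affinity one, and in mature B cells IL-4 and IL-21 act on activation, class switching and plasma cell differentiation.

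The B-cell markers MS4A1, CD79A and PAX5 were detected on all 6 arrays. Between 23570 and 24077 probes were detected per array, no spot was saturated, and the test covered 23945 probes that 3 or more of the 6 arrays detected. IL-17A replicate 1 shared a scan, and hence probably a slide, with the 3 controls, while IL-17A replicates 2 and 3 shared another. Scan and treatment therefore overlapped in part. The arrays of 1 scan are called a slide below, although no label names the slide. The value with slide as a block is the difference between IL-17A replicate 1 and the 3 controls. Levels are log2 signals after quantile normalization and cannot be compared between probes.

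The promoters of IL2RA and IL2RG are shown because they belong to the member that passed the adjusted test and to the chain it pairs with. The 250 bases before the RefSeq start (GRCh38.p14) are given 5′ to 3′, with motif matches in capitals.
IL2RA, chr10:6062368-6062617, minus strand: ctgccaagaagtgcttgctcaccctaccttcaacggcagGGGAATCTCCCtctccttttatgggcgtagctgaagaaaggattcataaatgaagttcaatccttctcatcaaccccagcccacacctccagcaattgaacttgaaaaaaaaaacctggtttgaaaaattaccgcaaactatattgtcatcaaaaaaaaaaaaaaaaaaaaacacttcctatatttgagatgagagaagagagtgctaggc
IL2RG, chrX:71111578-71111827, minus strand: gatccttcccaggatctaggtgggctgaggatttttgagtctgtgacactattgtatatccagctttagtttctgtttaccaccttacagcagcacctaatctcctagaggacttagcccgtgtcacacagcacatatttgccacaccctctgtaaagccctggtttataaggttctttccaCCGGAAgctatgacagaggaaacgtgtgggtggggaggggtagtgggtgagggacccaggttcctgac
The motifs searched on both strands were the STAT motif TTCNNNGAA, its STAT6 form with 1 more base in the spacer, the AP-1 motif TGANTCA, the ETS motif CCGGAA and the NF-kB consensus, and 8 of the 10 members had a promoter in the table. In IL2RA, the capitals mark 2 NF-kB matches that overlap in all but 1 base, starting 211 and 210 bases before the start. In IL2RG, they mark 1 ETS match starting 68 bases before it. Over 27305 promoters of the same length, 9.57% held the NF-kB consensus and 14.8% the ETS motif. Of the other members, IL4R held 2 NF-kB matches, IL9R 1 AP-1 match and IL15RA 1 match to TTCNNNGAA, which occurred in 6.78% of all promoters. A match describes letters in this window and is not a binding site.

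IL2RB, the beta chain that IL-2 and IL-15 share, was measured by 1 probe (A_24_P203000) and was well above background with IL-17A only. The median brightness of its spot was 26, 30 and 27 on the IL-17A arrays and 17, 19 and 20 on the control arrays, over a local background of 12 to 14 on every array. After normalization, its log2 signal was 3.10, 3.51 and 3.24 with IL-17A and 0.40, 0.88 and 0.66 in the controls. All IL-17A arrays were thus higher than all controls, and the spot was well above background on 3 of 3 IL-17A arrays and on 0 of 3 control arrays. The lowest signal still counted as well above background lay between 3.62 and 4.32 on a linear scale, where the mean of IL2RB was 9.72 with IL-17A and 1.56 in the controls. With the control signals raised to that lowest signal, the IL-17A arrays exceeded the controls by 2.46-fold (1.30 on the log2 scale). This flag-based bound depends on the lowest signal chosen and is not a strict minimum. The measured difference of 2.64 on the log2 scale depends on control signals near 0 and is no size of the change. It was 1.07 in the authors' series matrix values and 0.18 after normexp correction, which adds an offset of 50 to every signal. Both lie below the flag-based bound.

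**Figure D1:**
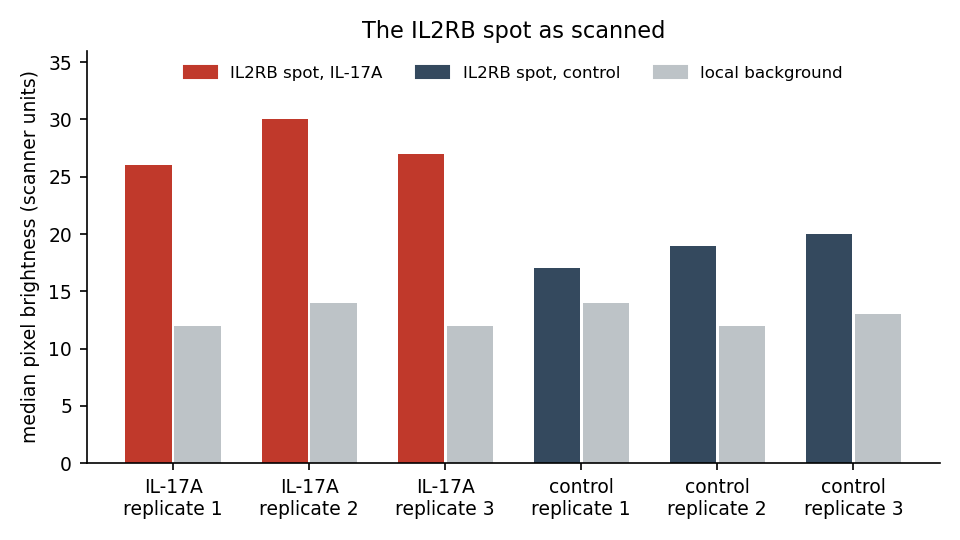
Median pixel brightness (scanner units, from 0) of the IL2RB spot and of its local background on each of the 6 arrays, before normalization. The IL-17A spots lie at 26 to 30 and the control spots at 17 to 20, over a background of 12 to 14.

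Few genes showed this pattern of flags. At the brightest tested probe of each gene, 27 of 14747 named genes passed the background flag on each of the 3 IL-17A arrays but on no control array, and 39 showed the opposite. IL2RB had the second highest flag-based bound of the 27, behind EEF1A2 at 2.55-fold. It was picked for its rise on these arrays, so neither its flags nor its rank is a test. IL-17A replicate 1, which shared a scan with the controls, also passed the flag. This is 1 array, and the part of the scan in the difference was not tested.

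IL2RA, the alpha chain of the IL-2 receptor, was upregulated with IL-17A. At its brighter probe (A_23_P127288), the log2 signal was 7.31, 7.38 and 7.36 with IL-17A and 6.89, 6.90 and 7.06 in the controls. The groups did not overlap, and the IL-17A arrays lay close together. The mean rose from 6.95 ± 0.09 (SD, n = 3) to 7.35 ± 0.04 (SD, n = 3), a 1.32-fold change (0.40 on the log2 scale with a standard error of 0.06, adjusted p = 0.0327 from limma), which is below the 1.5-fold threshold of the study's methods. These name a fold change of 1.5 with an unadjusted p under 0.05 and, in their statistics, a false discovery rate under 0.05 as well. The dimmer IL2RA probe (A_24_P230563) had log2 signals of 4.92, 4.80 and 4.92 with IL-17A and 4.51, 4.24 and 4.75 in the controls. Its groups did not overlap either, and its log2 fold change of 0.38 was of similar size, but with a wider control spread its adjusted p was 0.121 from limma. At the brighter probe, the log2 fold change was 0.36 within the shared slide (adjusted p = 0.124 from limma), and the unadjusted p stayed under 0.05 under every alternative run. The adjusted p was above 0.05 when IL-17A replicate 1, 2 or 3 or control replicate 1 or 2 was left out, up to 0.135, and 0.0477 without control replicate 3.

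IL2RG, the common gamma chain, did not differ beyond the spread between replicates. Its brighter probe (A_33_P3290394) had log2 signals of 10.83, 10.61 and 10.70 with IL-17A and 10.86, 10.82 and 10.72 in the controls, and its dimmer probe (A_23_P148473) had 6.85, 6.57 and 6.72 against 6.61, 6.62 and 6.44. The groups overlapped at both probes, and the probes pointed in opposite directions. The log2 fold change was -0.08 at the brighter probe (95% confidence interval -0.26 to 0.10) and 0.16 at the dimmer one (95% confidence interval -0.07 to 0.38), with adjusted p of 0.478 and 0.286 from limma.

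IL15RA, the alpha chain that binds IL-15, was measured by 3 probes. The brightest (A_33_P3399263) had log2 signals of 6.08, 6.11 and 6.20 with IL-17A and 6.25, 6.15 and 6.24 in the controls, which overlapped. Its log2 fold change was -0.08 (95% confidence interval -0.21 to 0.05, adjusted p = 0.326 from limma). The second probe (A_23_P138680) had a log2 fold change of 0.01 (95% confidence interval -0.09 to 0.10). The third (A_33_P3399267) was near background, well above it on 1 of 3 IL-17A and 3 of 3 control arrays, and its log2 fold change of -0.10 had a 95% confidence interval from -0.57 to 0.37. No IL15RA probe separated the groups.

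IL21R, the receptor chain that binds IL-21, separated the groups without passing the adjusted test. Its log2 signal was 6.02, 6.12 and 6.23 with IL-17A and 5.80, 5.72 and 5.89 in the controls, so that every IL-17A array was higher. The difference was 0.32 on the log2 scale (standard error 0.07, unadjusted p = 0.00553, adjusted p = 0.0574 from limma), a 1.24-fold difference. Within the shared slide it was 0.21, at an unadjusted p of 0.0661 from limma.

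IL4R, which binds IL-4 and lies next to IL21R on chromosome 16, had log2 signals of 9.85, 9.90 and 9.85 with IL-17A and 9.70, 9.77 and 9.83 in the controls. The groups just missed overlapping, at a log2 fold change of 0.10 (95% confidence interval -0.02 to 0.22, adjusted p = 0.217 from limma). IL2RA and IL15RA are likewise neighbours, on chromosome 10, and of that pair IL2RA passed the adjusted test and IL15RA did not; whether neighbours differed from each other was not tested.

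IL7R, the alpha chain of the IL-7 receptor, was dim on every array. Its log2 signal was 2.70, 2.82 and 3.03 with IL-17A and 2.91, 2.85 and 2.84 in the controls, well above background on all 6 arrays. The control arrays lay within the range of the IL-17A arrays, and the log2 fold change of -0.02 had a 95% confidence interval from -0.24 to 0.21. IL9R, the alpha chain of the IL-9 receptor, has pseudogene copies of similar sequence, so its probe may not be specific. It had log2 signals of 5.87, 5.88 and 5.84 with IL-17A and 5.86, 5.82 and 6.03 in the controls, which differed by -0.04 on the log2 scale (95% confidence interval -0.20 to 0.11). The groups overlapped for both genes.

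Neither ligand was detected. IL2, the growth factor of activated T cells, had log2 signals of 0.03, 0.02 and 0.15 with IL-17A and 0.04, 0.10 and 0.00 in the controls, each the mean of 10 spots. IL15, which is presented to cells by IL15RA, had 1.95, 2.20 and 1.95 with IL-17A and 1.77, 1.85 and 1.25 in the controls. No array was well above background for either gene, so no fold change is given and neither gene was tested.

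**Figure D2:**
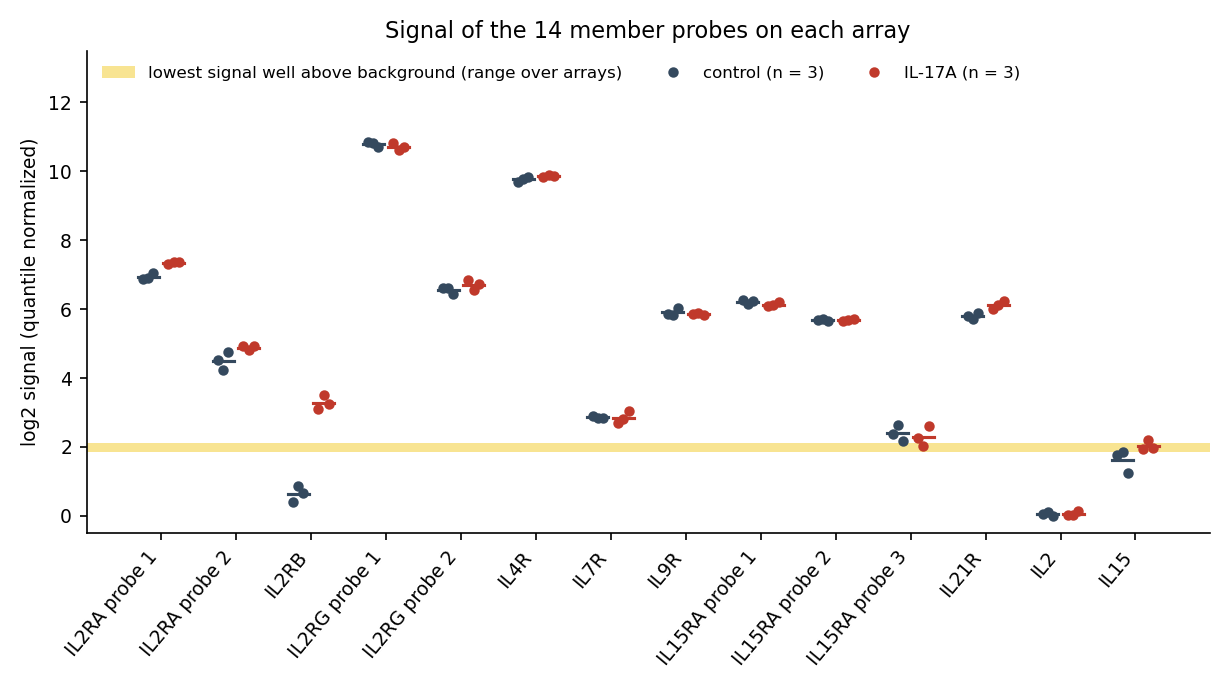
Log2 signal (quantile normalized) of the 14 member probes on the 3 control and 3 IL-17A arrays, with points for arrays and lines for group means. IL2RB lies above the band of the lowest signal well above background (log2 1.86 to 2.11) with IL-17A and below it in the controls, and heights of different probes cannot be compared.

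Of the 7 tested members other than IL2RB, 1 (IL2RA) had an adjusted p under 0.05 from limma, while 7.85% of all 14747 tested named genes did. None of the 7 passed both a fold change of 1.5 and an unadjusted p under 0.05 with limma or with the methods' t-test, which 1.92% of all genes did with limma and 1.4% with the methods' t-test. An unadjusted p under 0.05 was found for 2 of the 7 members (IL2RA and IL21R) with either test, and for 31.8% of all genes with limma and 30.7% with the methods' t-test. No member was lower at an adjusted p under 0.05, against 3.48% of all genes, although 4 of the 7 had a lower mean with IL-17A. Of the 11 tested probes of these members, 1 had an adjusted p under 0.05 and 0 passed both thresholds, against 7.59% and 2.18% of all tested probes. The groups did not overlap for 3 of the 7 at the brightest probe (IL2RA, IL4R and IL21R), close to the 40.6% of all genes. All 3 were higher with IL-17A, and 21.3% of all genes were higher without overlap. The median log2 fold change was -0.02 over the 7 members and 0.00 over all tested genes. An exact permutation test of a single gene with 3 arrays against 3 cannot give a p below 0.1.

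**Figure D3:**
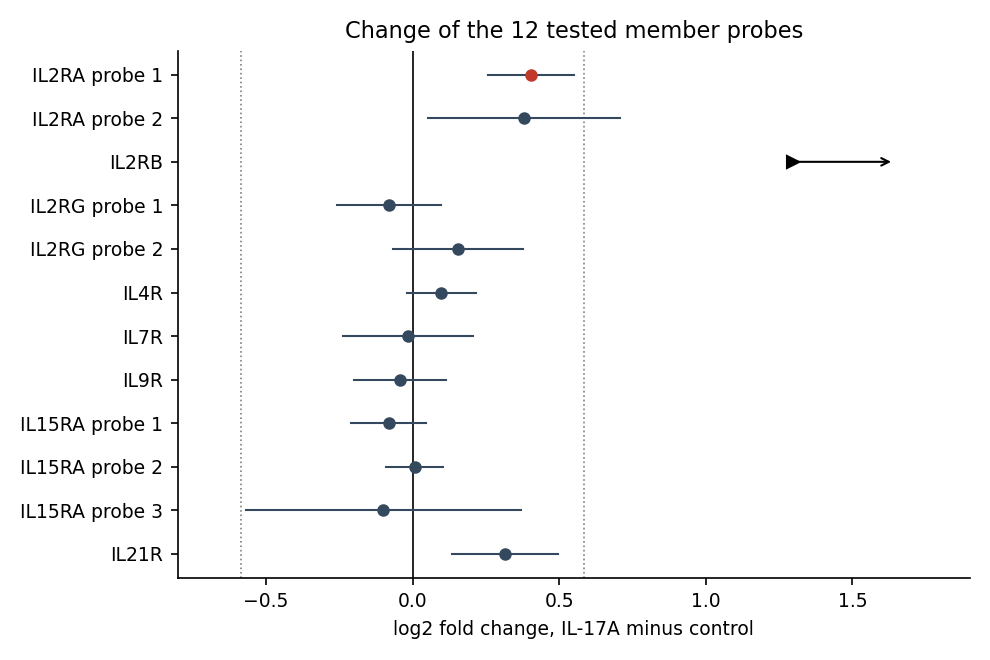
Log2 fold change (IL-17A minus control) of the 12 member probes detected on at least 3 arrays, with limma's 95% confidence intervals except for IL2RB and dotted lines at 1.5-fold. The IL2RA probe in red, at 0.40, had an adjusted p under 0.05. The black arrow for IL2RB starts at its flag-based bound of 2.46-fold, which is not a strict minimum, and has no upper end.

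The 5 named genes whose signal followed IL2RB most closely over the 6 arrays were SPATS2 (Pearson r = 0.999), RNF130, RHOBTB1, ADA and EFEMP2 (r = 0.997 each). The points share the 2 groups, so r mostly reflects the difference between them, and the control values of IL2RB were not well above background. The genes' own log2 fold changes were 0.17, 0.45, 0.42, 0.21 and 0.51.

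Most other genes of the pathway did not pass the adjusted test. Of 49 further genes, 41 were tested, 28 of them higher and 13 lower with IL-17A (7509 of all 14747 tested genes were higher), with a median log2 fold change of 0.09. An adjusted p under 0.05 from limma was found for 4 genes, all upregulated, and 4.37% of all tested genes were upregulated by this measure. The 4 were STAT5A, PTPN2, PRDM1 and CCND2, of which CCND2 passed the detection filter through its IL-17A arrays alone and so had to differ.

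Of the ligands, only IL13 was tested, since IL4, IL7, IL9, IL21 and TSLP were not detected on any array. IL13 and CCND2 were higher past the fold change and unadjusted p thresholds, which 0.814% of all genes did. CCND2 had to differ, as its probe passed the filter through the IL-17A arrays alone. IL13, which acts on the IL-4 receptor chain, had log2 signals of 3.23, 3.13 and 2.74 with IL-17A and 2.71, 1.97 and 2.64 in the controls. It was dim, well above background on 3 of 3 IL-17A and 2 of 3 control arrays, without the control at 1.97. It passed narrowly, at a log2 fold change of 0.60, with an adjusted p of 0.156 from limma, above the false discovery rate of the methods. It also passed without IL-17A replicate 3 and without control replicate 1, but not without any other array, nor under any alternative run for the normalization, background, filter, floor, variance model, test, block or fold threshold. CRLF2, the receptor chain for TSLP that pairs with IL7R, was well above background on 3 of 3 control and 0 of 3 IL-17A arrays at its tested probe. By the flag-based bound it was 1.28-fold lower with IL-17A, and in the series matrix values its log2 fold change was smaller, at -0.17. Its adjusted p was 0.142 from limma, on a probe that passed the filter through the control arrays alone.

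None of the 4 kinases passed the adjusted test. JAK1, which binds the cytokine-specific chains, had a log2 fold change of 0.19 (95% confidence interval -0.03 to 0.41), and JAK3, the partner of the common gamma chain, of 0.10 (95% confidence interval -0.04 to 0.25) at its brightest probe. Of the 5 STATs, 1 passed the adjusted test. STAT5A, which transmits IL-2 and IL-15 signals, had log2 signals of 7.18, 7.16 and 7.13 with IL-17A and 6.96, 6.93 and 6.89 in the controls. The groups did not overlap, and STAT5A rose by 0.23 on the log2 scale, with a standard error of 0.04 and an adjusted p of 0.0363 from limma. Its paralog STAT5B had a log2 fold change of 0.13 (adjusted p = 0.141) and STAT6, the IL-4 transducer, of 0.09 (adjusted p = 0.248).

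None of the 10 adaptor and PI3K genes passed the adjusted test. Of the 7 inhibitors, PTPN2, a phosphatase that acts on JAK1, JAK3 and STAT5, rose by a log2 fold change of 0.20 at its brighter probe (adjusted p = 0.0470 from limma), while its dimmer probe had -0.03 (adjusted p = 0.650). SOCS2, a STAT5 target that restrains cytokine signaling, had a log2 fold change of -0.55 (adjusted p = 0.109). Among the 12 tested targets, PRDM1, the plasma cell regulator induced by IL-21, had log2 signals of 6.04, 6.03 and 6.00 with IL-17A and 5.58, 5.60 and 5.75 in the controls. It rose by 0.38 on the log2 scale, with a standard error of 0.06 and an adjusted p of 0.0327 from limma. CCND2, which encodes cyclin D2, was well above background on 3 of 3 IL-17A and 0 of 3 control arrays. By the flag-based bound CCND2 was 1.80-fold higher with IL-17A (0.85 on the log2 scale), against 0.63 in the series matrix values. Its adjusted p of 0.0109 from limma rests on control signals at or near the floor. The probe passed the filter through the IL-17A arrays alone, so this p is no support for a rise. The adjusted p of STAT5A and of PTPN2 stayed under 0.05 in 7 of 17 alternatives each and that of PRDM1 in 9 of 17, while the unadjusted p was under 0.05 in all of them. With any 1 array left out, the adjusted p was 0.0588 to 0.145 for STAT5A and 0.0736 to 0.171 for PTPN2. That of PRDM1 was above 0.05 without any array but control replicate 3, up to 0.135, and that of CCND2 was above 0.05 without IL-17A replicate 2 or 3 or control replicate 1, up to 0.0917.

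**Figure D4:**
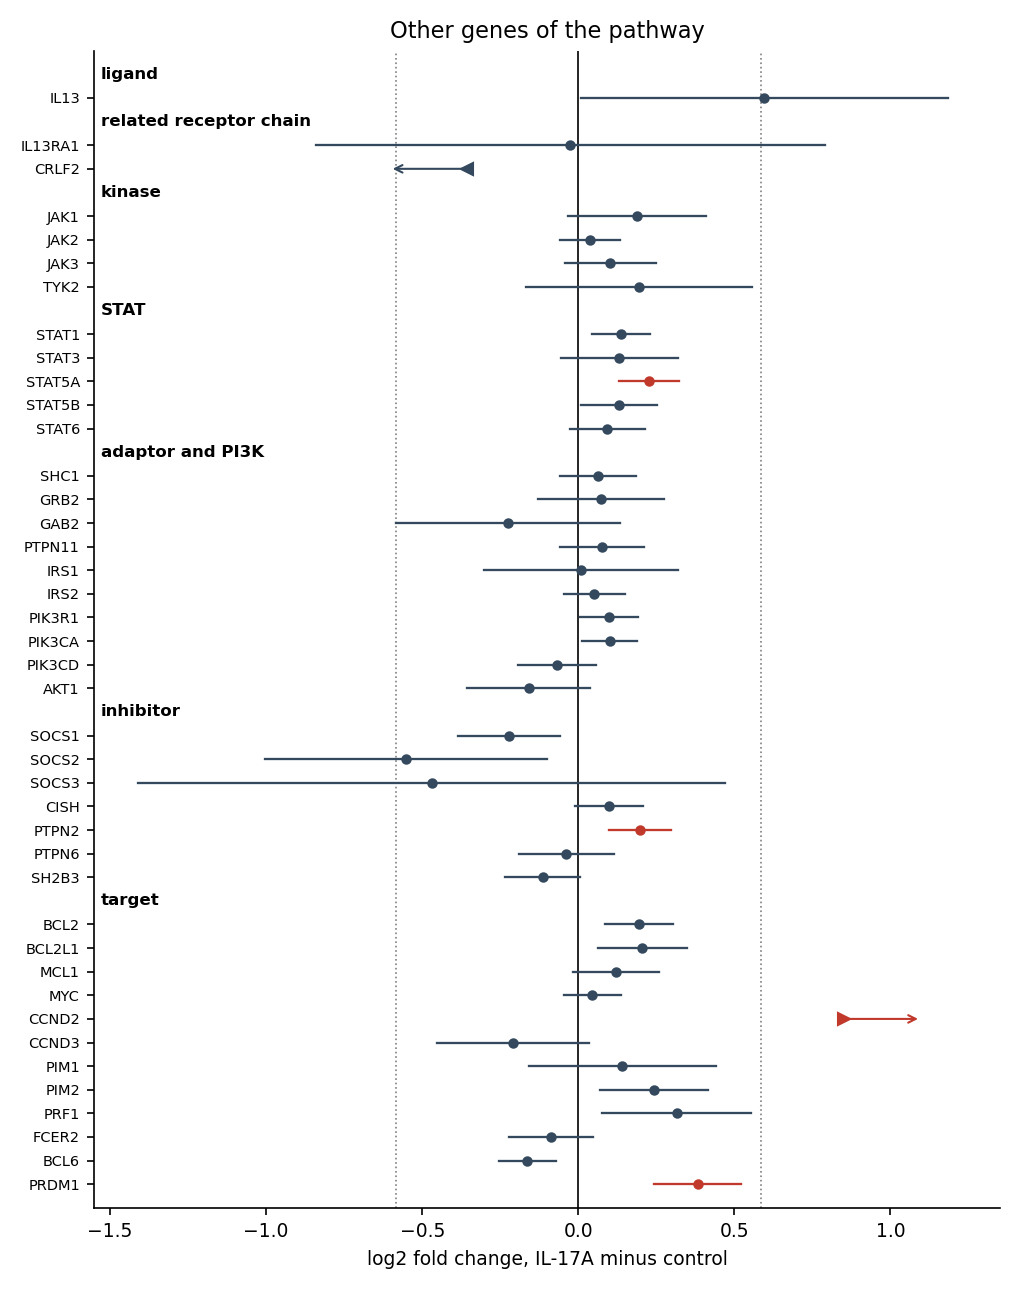
Log2 fold change (IL-17A minus control) with limma's 95% confidence interval for 41 other pathway genes at their brightest tested probe, grouped by role, with dotted lines at 1.5-fold. Red marks an adjusted p under 0.05 (STAT5A, PTPN2, CCND2 and PRDM1), and arrows for CRLF2 and CCND2 start at their flag-based bounds of 1.28-fold and 1.80-fold.

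IL2RB is also a marker of T and NK cells, so the lists of those cells were read beside it. Of 9 T-cell markers, 7 were detected on all 6 arrays, and the summed linear signal of the list, most of it from CD4, was 1067 to 1170 with IL-17A and 1247 to 1438 in the controls. CD3D had a log2 fold change of -0.11 (adjusted p = 0.729 from limma), and CD3E fell by 0.46 on the log2 scale (adjusted p = 0.0401). CD2 had a log2 fold change of 0.51 (adjusted p = 0.0539) without overlap, and CD3G of 0.12 (adjusted p = 0.170), so that 3 of the 7 tested T-cell markers were higher and 4 lower. Of 9 NK-cell markers, 4 were detected on all arrays and 3 on none, with a sum of 65.6 to 79.2 with IL-17A and 79.8 to 90.3 in the controls. NKG7 had a log2 fold change of 0.07 (adjusted p = 0.810), and NCR1, at a log2 fold change of -0.67, was past the fold change and unadjusted p thresholds with an adjusted p of 0.145. The mean linear signal of NCR1 was 21.6 with IL-17A and 34.2 in the controls. By gene, 3 of the 5 tested NK-cell markers were higher, among them PRF1, also on the pathway list, which differed by 0.32 on the log2 scale (adjusted p = 0.0944). Of 7 monocyte markers measured, 2 (CD14 and VCAN) were detected on all arrays, with a sum of 53.5 to 55.3 against 57.2 to 59.9 in the controls. These 3 sums were lower on every IL-17A array than on every control array, while 40.6% of all genes had no overlap in either direction. The NK-cell sums lay closest, at 79.2 against 79.8, and a sum follows its brightest genes. The part of such cells in the IL2RB signal was not tested. All samples were of a single cell line, so the sums are signals of marker genes and do not measure a share of such cells.

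**Figure D5:**
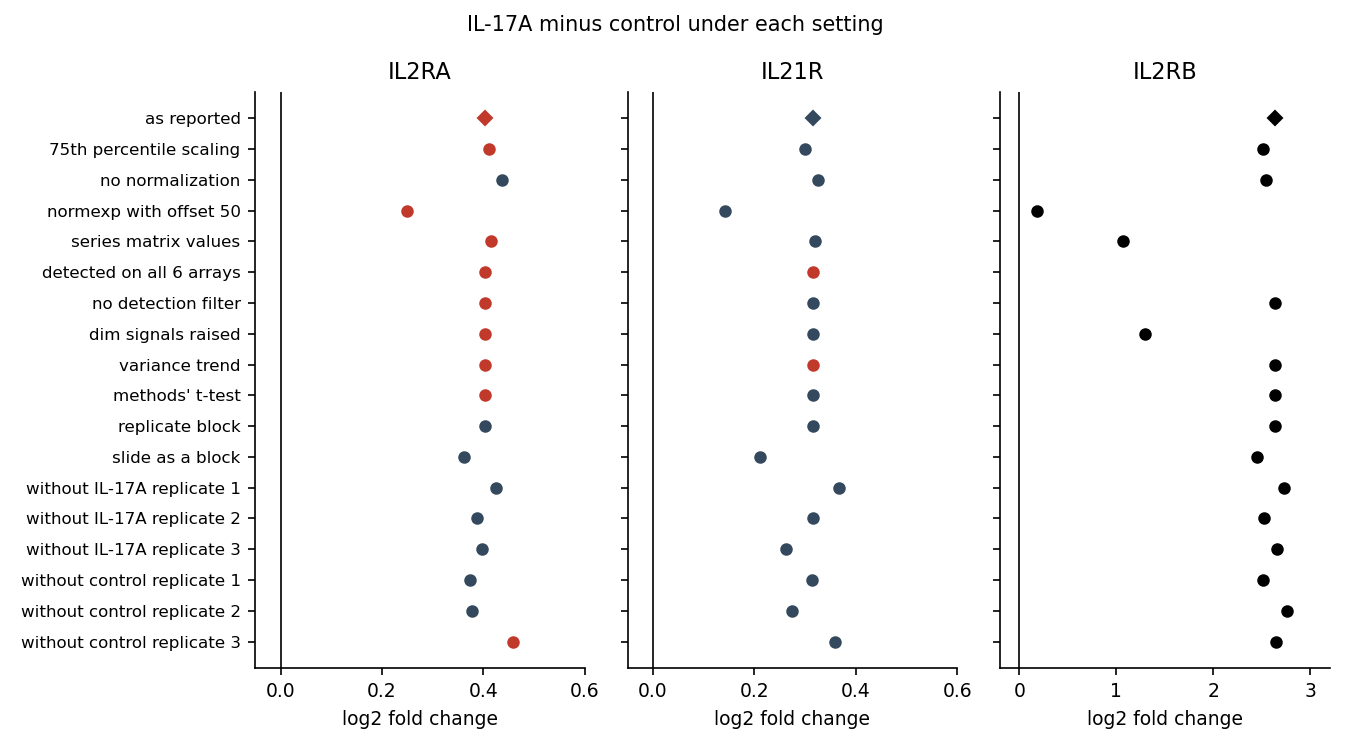
Log2 fold change (IL-17A minus control) of IL2RA (brighter probe), IL21R and IL2RB as reported (diamonds) and under each alternative (circles), with red for an adjusted p under 0.05 and black for IL2RB, which was not tested. IL2RA lies between 0.25 and 0.46 and IL21R between 0.14 and 0.37. IL2RB, measured against controls not well above background, falls from 2.64 to 0.18 after normexp correction.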

How the data were processed

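The deposited scanner files of Feature Extraction 11.0.1.1 hold, per spot, an intensity on a linear scale, which the authors' software had background-subtracted without normalization between arrays. They also hold the median brightness of spot and background and flags of 0 or 1, an other kind of value. The series table that the authors deposited holds log2 values, quantile normalized in GeneSpring, and served as an alternative. Control and non-uniform spots were left out, intensities below 1 were set to 1, replicate spots were averaged as log2 values, and the 6 arrays were quantile normalized. Detected means positive, significant and well above background. Probes detected on at least 3 arrays were compared by a two-sided limma fit (version 3.58.1 in R 4.3.3) that held no covariate, and p-values were adjusted by Benjamini-Hochberg across the 23945 probes tested. Each gene was read at the brightest of its tested probes, and 25771 probes were named through RefSeq accessions (GRCh38.p14). The array is annotated on an earlier assembly, so probe coordinates are not given. The procedure was tested on simulated data.

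The members and all lists were chosen with earlier results of these data known. All members were named at every probe. Of the pathway list, genes past both thresholds or with an adjusted p under 0.05 were named, with JAK1, JAK3, STAT5A, STAT5B and STAT6. Of the marker lists, defining markers and genes past both thresholds were named. The undetected ligands, CRLF2, SOCS2, CD2, CD3G, PRF1, EEF1A2 and the sources of the marker sums were named after their values were seen. Array number limits the precision of every value. Alternatives changed normalization, background correction, values, filter, floor, variance model, test, block, probe, threshold and arrays. One B-cell marker and the summed signal of its list are not reported here.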

Additional observations from a re-analysis of the deposited data

How the results depend on the processing

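Of the 7 tested members other than IL2RB, 0 passed both the fold change and the unadjusted p threshold in every alternative run. The count with an adjusted p under 0.05, 1 as reported, was 0 without normalization, with the replicate block and with slide as a block, and 2 (IL21R added) with probes detected on all 6 arrays, with a variance trend and with the mean of a gene's probes. It was 0 to 1 with each array left out. The number of pathway genes past both thresholds, 2 as reported, was 0 with normexp and with probes detected on all arrays. It was 1 (CCND2) with the series matrix values, no detection filter, dim signals raised, a variance trend, the methods' t-test, the replicate block and a fold change of 2, and 4 with slide as a block (CCND2, CRLF2, IL13RA1 and SOCS2). It stayed 2 with 75th percentile scaling and without normalization, where the genes were CCND2 and CRLF2 (lower) in place of CCND2 and IL13, and without control replicate 3, where they were CCND2 and SOCS2 (lower). It was 1 to 4 with each array left out. CCND2 and CRLF2 passed the detection filter through 1 group alone, so their part of these counts is no support for a change. Over all probes, 1818 had an adjusted p under 0.05, against 2 to 983 with an array left out, 4 with the replicate block, 46 without normalization and 48 with slide as a block. Deviations from the group means correlated at -0.087, -0.0022 and -0.047 between arrays of the same replicate number. These values cannot show whether equal numbers mark paired cultures. The cause of the lost calls under the replicate block was not tested. Past both thresholds, 241 probes were higher and 281 lower, against 150 and 422 with 75th percentile scaling, 186 and 426 without normalization and 4 and 13 with normexp. IL2RB was 1.30 on the log2 scale with dim signals raised.

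Of the log2 fold changes that turned sign, none had passed a test. The brighter IL2RG probe was 0.037 both under the slide block and as the mean of its probes. With each array left out, IL7R ranged from -0.11 to 0.058, IL9R from -0.083 to 0.021, the second IL15RA probe from -0.012 to 0.021 and the third from -0.26 to 0.042. The second IL15RA probe was -0.015 after 75th percentile scaling and under the slide block and -0.0048 after normexp. The cause was not tested.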
